A study of Mus musculus with 3 samples.

Results

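Expression of 8 genes of the SREBP2 and cholesterol synthesis pathway, Hmgcs1, Idi1, Fdft1, Sqle, Lss, Cyp51, Insig1 and Srebf2, was examined in mouse embryonic stem (ES) cells depleted of the nuclear pore protein NUP153. The genes were taken as a list of symbols, with no threshold on their values but with earlier results of these data known, and make up 8 of the 24421 genes counted. RNA-Seq was carried out in 3 libraries with 1 library per group: a control, NUP153 KD-1 and NUP153 KD-2. The study asked how depletion of NUP153, a protein of the nuclear basket of the pore, alters transcription in these cells.

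All 3 groups were undifferentiated female ES cells of the EL16.7 line with the strain background F2:129S1/CastEiJx 129S1, kept in 20% FBS with LIF on γ-irradiated embryonic fibroblasts of Tg(DR4)1Jae/J mice. Each was transduced with an shRNA lentivirus and then kept in puromycin, at 2 μg/ml, through 2 days of selection. The control, labelled wild type, carried a scramble shRNA. KD-1 and KD-2 carried different shRNAs against NUP153, so they are not replicates of 1 treatment. The feeder fibroblasts were a second source of RNA in every dish, and in such bulk samples fewer cells of a type and less RNA per cell cannot be told apart.

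Cholesterol is made from acetyl-CoA by way of mevalonate, the isoprenoid pyrophosphates, squalene and lanosterol. SREBP2, the product of Srebf2, is a membrane-bound transcription factor that is held in the endoplasmic reticulum by INSIG proteins when sterols are plentiful. When sterols run low, its escort SCAP carries it to the Golgi, where proteolysis releases the part that enters the nucleus and activates genes of the pathway. Insig1 is itself a target of SREBP2, so that its mRNA is often read together with those of the synthetic enzymes.

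SREBPs are known to bind sterol regulatory elements near start sites, often beside sites for NF-Y (CCAAT) and Sp1 (GGGCGG). The stretches before 3 RefSeq start sites are shown because Idi1 and Insig1 had the lowest levels against control in both knockdowns among the members with no overlapping counted gene, and Hmgcs1 alone held a sterol regulatory element as searched. Capitals mark the letters of these motifs on either strand, together with the element TCACCCCAC in Hmgcs1 and the E-box (CACGTG) in Insig1. The sequences are from RefSeq on GRCm38.p6, all on the + strand, at chr13:119690101-119690350 for Hmgcs1, chr13:8885536-8885565 for Idi1 and chr5:28071162-28071362 for Insig1. Hmgcs1 is given for the 250 bases before its RefSeq start. Insig1 is cut where the GENCODE gene model begins, at 28071363, and for Idi1 only 30 bases with 2 motifs are given. The GENCODE model of Idi1 begins at 8885501, so these bases and motifs precede the RefSeq start but lie inside the gene model used here for its coordinates and RPKM.
Hmgcs1: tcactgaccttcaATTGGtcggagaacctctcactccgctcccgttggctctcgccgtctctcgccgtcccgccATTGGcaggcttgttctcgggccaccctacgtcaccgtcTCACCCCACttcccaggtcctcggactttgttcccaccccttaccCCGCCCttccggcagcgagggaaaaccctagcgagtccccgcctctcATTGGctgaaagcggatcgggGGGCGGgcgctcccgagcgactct
Idi1: cCCGCCCtagccttgcctccagctgATTGG
Insig1: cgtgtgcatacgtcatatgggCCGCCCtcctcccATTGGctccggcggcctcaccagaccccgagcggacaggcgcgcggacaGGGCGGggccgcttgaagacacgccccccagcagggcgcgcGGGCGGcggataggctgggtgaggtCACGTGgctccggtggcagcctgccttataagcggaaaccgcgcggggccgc

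Promoters of 6 of the 8 members (Hmgcs1, Idi1, Lss, Cyp51, Insig1 and Srebf2) were in the RefSeq table; Fdft1 and Sqle were not. In the 250 bases before the start, searched on both strands, CCAAT was present in 6 of 6 members and GGGCGG in 6 of 6. CCAAT was present in 33.8% of all 32851 promoters and in 34.8% of the 15487 promoters of genes tested here, and GGGCGG in 32.7% and 53.3%. Among the other enzymes of the pathway, 11 of 12 promoters held CCAAT and 11 of 12 held GGGCGG. The element CACCCCAC was found in 1 of 6 members, against 2.58% of all promoters, 2.87% of those of genes tested and 1 of 12 other enzymes. It lies from base -136 to -129 in Hmgcs1, within the only match among the members to the wider form TCACNCCAC, which 1.05% of all promoters hold. CACGTG was found in 1 of 6 members, at -101 to -96 in Insig1, in 6.02% of all promoters, 7.92% of those of genes tested and 3 of 12 other enzymes. In Idi1, CCAAT was on the other strand at -45 to -41, and at -14 to -10 beyond the stretch shown. A match describes letters in this window only.

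Reads on genes numbered 72344726, 85258834 and 69839336 in control, KD-1 and KD-2, and all 8 members passed the minimum mean of 10 reads that 16670 of 24421 genes passed. Nup153 fell to 50.4% (KD-1) and 37.1% (KD-2) of its control level, in the direction of the labels. A gene is called lower or higher here when its scaled level, in CPM of the reads on genes after upper-quartile scaling, differed by more than 1.5-fold (0.58 on the log2 scale). Shares of all genes called by this fold are given under upper-quartile scaling only. Intervals are exact 95% intervals for the counting of reads alone; with 1 library per group no difference between 2 libraries has a replicate check. The ES cell markers were present in all 3 libraries, with 127 reads or more each, and their summed level was 4870 CPM in control, and 5310 and 3570 in KD-1 and KD-2. Of these 10 markers, 8 were above and 2 below control in KD-1 (median log2 0.15). In KD-2, 3 were above and 7 below (median -0.30). The 10 fibroblast markers were also detected, with none at 0, and summed to 1160, 482 and 2150 CPM. All 10 were below control in KD-1 (log2 -2.01 to -0.12) and all 10 were above control in KD-2 (0.37 to 1.30). The 6 primitive endoderm markers summed to 7.80 to 11.3 CPM. The 2 knockdown libraries thus lie on opposite sides of the control in feeder markers. The part of these shifts in feeder and ES cell markers in the values below was not tested.

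The 8 members together gave 1270 CPM in control, and 1030 and 913 in KD-1 and KD-2, and 7 of 8 were below control in both knockdowns. Both comparisons use the same control library, so a low or high count there would move both alike. Idi1, the isomerase that interconverts the isoprenoid building blocks, was the only member called lower in both. Srebf2 stood at the control level. Of all 16670 genes tested, 27.0% were below control in both by any amount, and 36.3% of the 7881 genes averaging 1000 reads or more, which all members reached.

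Hmgcs1 (ENSMUSG00000093930.2, chr13:119690379-119708260) encodes the cytosolic HMG-CoA synthase, an early enzyme of the mevalonate route. It gave 25607 reads in control, and 29515 and 21099 in KD-1 and KD-2, or 366, 360 and 280 scaled CPM. The control and KD-1 levels lie side by side, with KD-2 below both. The log2 difference from control was -0.02 in KD-1 (95% interval -0.05 to 0) and -0.39 in KD-2 (-0.41 to -0.36).

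Idi1 (ENSMUSG00000058258.14, chr13:8885501-8892451) acts further on in the mevalonate route. It gave 12152 reads in control, and 6745 and 7116 in KD-1 and KD-2, or 174, 82.4 and 94.5 scaled CPM. Both knockdowns lie near one another and well below the control, at 47.4% and 54.4% of it. The log2 difference was -1.08 in KD-1 (-1.12 to -1.03) and -0.88 in KD-2 (-0.92 to -0.84).

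Fdft1, which encodes squalene synthase and commits farnesyl pyrophosphate to sterols, differed between the knockdowns. It gave 10138 reads in control, and 10270 and 6795 in KD-1 and KD-2, or 145, 125 and 90.3 scaled CPM. The level in KD-2, 62.2% of control, was called lower, and that in KD-1, 86.5%, was not. The log2 differences were -0.21 (-0.25 to -0.17) and -0.68 (-0.73 to -0.64). Exons of Fdft1 (chr14:63145150-63179578) overlap those of Ctsb on the other strand, which lay 0.14 (KD-1) and 0.35 (KD-2) above control on the log2 scale. The strand counted is not given in the sources used here, so how reads from the shared stretch were assigned is not known. Reads set aside as ambiguous made up 1.45 to 1.65% of each library.

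Sqle encodes squalene epoxidase, an oxygen-dependent and tightly controlled step. Its 6663 reads in control, and 7494 and 6073 in KD-1 and KD-2 correspond to 95.3, 91.5 and 80.7 scaled CPM. The 3 levels are close, with log2 differences from control of -0.06 (-0.11 to -0.01) and -0.24 (-0.29 to -0.19). Lss, the gene of lanosterol synthase that closes the sterol rings, gave 5189, 4994 and 4691 reads, or 74.2, 61.0 and 62.3 scaled CPM. Both knockdowns of Lss were similarly far below control, at -0.28 and -0.25, and neither was called. Lss overlaps 4930483K19Rik on the other strand, which had 32 to 34 reads in each library.

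Cyp51 encodes the lanosterol demethylase that starts the work on lanosterol. It gave 9685 reads in control, and 9084 and 8066 in KD-1 and KD-2, or 139, 111 and 107 scaled CPM. The levels in the knockdowns were 80.1% and 77.3% of control, log2 -0.32 (-0.36 to -0.28) and -0.37 (-0.41 to -0.33), with little between them. Exons of Cyp51 overlap Akap9 on the other strand, which was 0.26 and 0.08 above control.

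Insig1, which encodes a protein that retains SREBP2 when sterols are plentiful, gave 18123 reads in control, and 14781 and 13442 in KD-1 and KD-2. Its scaled levels were 259, 181 and 179 CPM, with both knockdowns at nearly 1 level below the control. The log2 difference was -0.52 in KD-1 (-0.55 to -0.49) and -0.54 in KD-2 (-0.57 to -0.51), which falls just short of the 1.5-fold threshold of 0.58. The member nearest past it was Fdft1, at -0.68 in KD-2.

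Srebf2, the gene of SREBP2 itself, gave 1343 reads in control, and 1646 and 1453 in KD-1 and KD-2. Its 19.2, 20.1 and 19.3 scaled CPM did not differ beyond the counting of reads, with log2 differences of 0.06 (-0.04 to 0.17) and 0.01 (-0.10 to 0.11). It was the member with the fewest reads and the only one above control in both knockdowns, although with DESeq2 size factors all 8 members, Srebf2 included, were at or below control in KD-1.

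**Figure D1:**
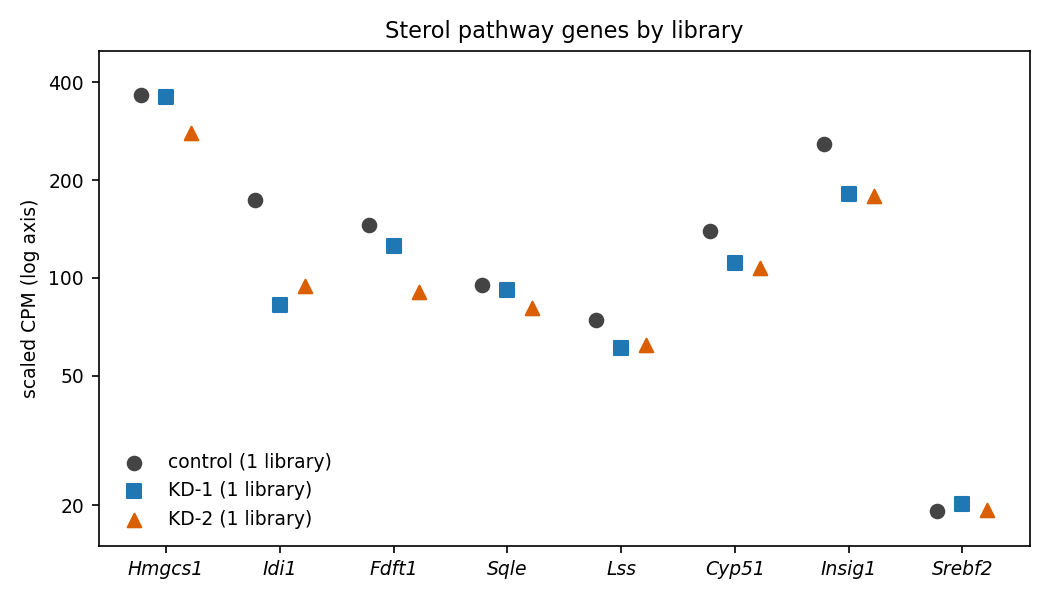
Scaled CPM (log axis) of each of the 8 members in the control, KD-1 and KD-2 libraries, 1 point per library with no error bars. The 2 knockdown points lie well under the control point for Idi1 (174 against 82.4 and 94.5), while the 3 points of Srebf2 lie between 19.2 and 20.1.

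The order of the members by level was compared per length, in RPKM, which here takes the total reads on genes of each library as its depth and not the upper-quartile scaling of the levels above. In control Insig1 was the highest at 81.0, followed by Hmgcs1 at 77, Idi1 at 47.9, Fdft1 at 33.2, Cyp51 at 30.3, Sqle at 16.6, Lss at 6.65 and Srebf2 at 2.58. In both knockdowns Hmgcs1, at 75.4 and 65.8, was above Insig1, at 56.1 and 62.2. In KD-1 Idi1, at 22.6, was below Fdft1 at 28.5 and Cyp51 at 24.1. In KD-2 Cyp51, at 26.2, was above Fdft1 at 23.0. Whether neighbours in this order differ beyond a spread between libraries could not be tested with 1 library per group. The order also rests on the union exon length of each gene, 10787 bases for Lss against 5546 for Sqle and 4415 for Cyp51.

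In KD-1 against control, 1 of 8 members, Idi1, was called lower and 0 were called higher. With DESeq2 size factors 2 members were called lower, since Insig1 was then at -0.59. Of all genes tested, 5.62% were called lower in this comparison and 8.63% higher, and 3.01% of those with a mean of at least 1000 reads were called lower. The members' median log2 difference was -0.25, beside 0.02 over all genes tested and -0.02 over those of at least 1000 reads, of which 80% lay between -0.28 and 0.26. Over the 5 members without an overlapping counted gene it was -0.06, since 3 of these (Hmgcs1, Sqle and Srebf2) were within 0.06 of control.

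In KD-2 against control, 2 of 8 members, Idi1 and Fdft1, were called lower and 0 higher. The background was 10.2% called lower and 17.1% called higher, and 9.12% called lower at a mean of at least 1000 reads. The members' median was -0.38, beside -0.02 over all genes and -0.16 over those of at least 1000 reads, whose central 80% ran from -0.57 to 0.52. With library totals as the scaling, Fdft1 was at -0.53 and 1 member was called. Idi1 was called lower in both knockdowns; 0.990% of all genes tested, and 0.165% of those with at least 1000 reads, shared that call.

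**Figure D2:**
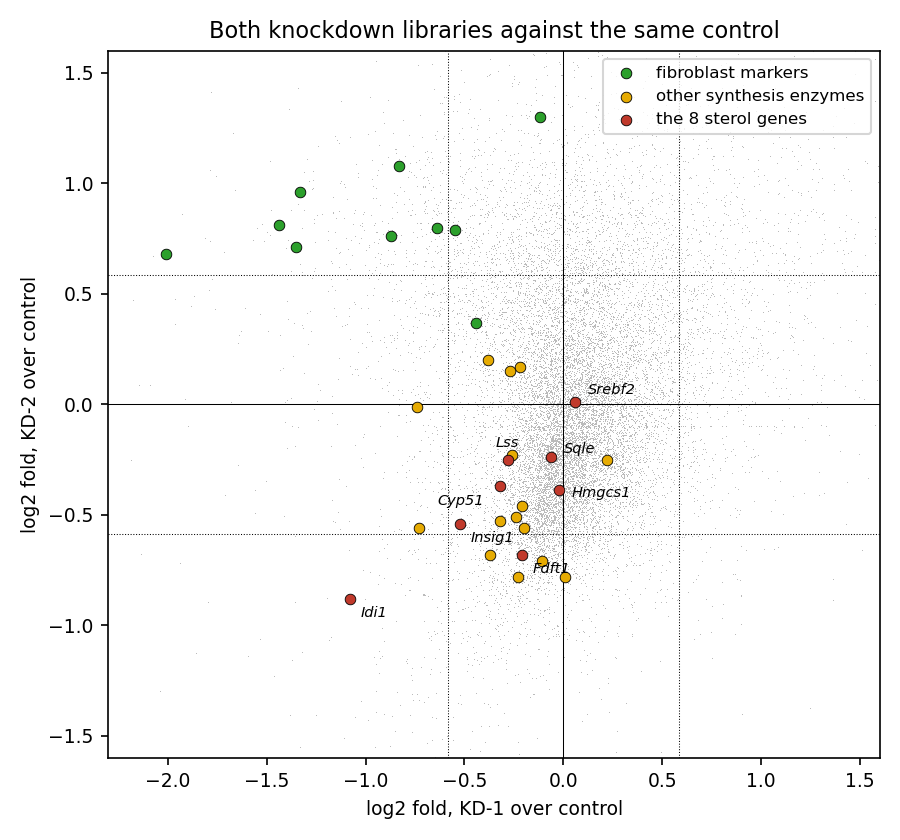
Log2 difference from control in KD-1 (x) and KD-2 (y), after upper-quartile scaling, for the 16670 genes tested (gray; genes beyond the axes are not drawn), the 8 members (red, named), the other 15 enzymes (yellow) and the 10 fibroblast markers (green), with dotted lines at 1.5-fold. Idi1 lies at -1.08 and -0.88, past the lines on both axes, Srebf2 lies near the origin at 0.06 and 0.01, and both axes use the same control library.

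KD-1 was set against KD-2 to see where the 2 shRNAs differ. None of the 8 members was called, while 16.1% of all genes were called lower in KD-1 and 13.9% higher. Fdft1 differed most, at 0.47 (0.43 to 0.52), and Hmgcs1 by 0.36; both were lower in KD-2. Idi1 was -0.20 (-0.25 to -0.15), lower in KD-1. Insig1, Cyp51, Lss and Srebf2 differed by 0.02, 0.05, -0.03 and 0.06, and the signs for Insig1 and Cyp51 turned under the 3 other scalings.

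The only test with any replication set both knockdown libraries against the control, by the quasi-likelihood test of edgeR on TMM-scaled counts. It has 1 residual degree of freedom, takes its spread from KD-1 and KD-2, and assumes that the control varies alike. It called 0 of 16670 genes (0%) at an adjusted p of 0.05, with 190 genes under 0.05 before adjustment; the Wald test of DESeq2 called 2 genes, none of them members. Idi1 had the largest estimate among the members, -0.96 (SE 0.37), was lower in 2 of 2 knockdown libraries, and was the 1 member among the 190 genes, with an adjusted p of 1. Insig1 was estimated at -0.51 (SE 0.38), Fdft1 at -0.42 (SE 0.37) and Srebf2 at 0.05 (SE 0.41), each with an adjusted p of 1. No member passed this test.

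The other 15 enzymes of the pathway were set beside the members, which hold 6 enzymes, to give all 21 enzymes in their order of action. Of these 21, 16 were below control in both knockdowns and 0 were above in both, with medians of -0.24 (KD-1) and -0.46 (KD-2). Below control in both were 27.0% of all genes tested and 36.3% of those averaging 1000 reads or more. In KD-1 3 of 21 were called lower, beside 5.62% of all genes tested, and in KD-2 6 of 21, beside 10.2%. With library totals as the scaling the KD-2 count was 3 of 21, while the 10.2% holds for upper-quartile scaling only. Their summed level was 2240 CPM in control, and 1880 and 1600 in KD-1 and KD-2. Idi1 was the only enzyme called in both.

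In the 8 mevalonate steps, from Acat2 to Fdps, 8 of 8 (KD-1) and 7 of 8 (KD-2) were below control. Fdps, which makes farnesyl pyrophosphate, was -0.37 in KD-1 and was called lower in KD-2 at -0.68. Mvk, mevalonate kinase, was -0.22 and 0.17 in KD-1 and KD-2. In the 3 squalene steps, Fdft1, Sqle and Lss, the medians were -0.21 and -0.25.

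The 10 steps after lanosterol had medians of -0.30 and -0.45. In KD-1 2 of these 10 were called lower, beside 5.62% of all genes, and in KD-2 3 of 10, beside 10.2%. For the mevalonate steps these counts were 1 of 8 and 2 of 8, and a difference between the stretches was not tested. Hsd17b7, a sterol ketoreductase, was called lower in KD-1 at -0.74 (-0.83 to -0.64) and was -0.01 in KD-2. Ebp, the sterol isomerase, was called lower in KD-1 at -0.73 and was just short of the threshold in KD-2 at -0.56. Nsdhl, which helps to remove the C4 methyl groups, was -0.23 in KD-1 and was called lower in KD-2 at -0.78 (-0.86 to -0.71). Lbr, the lamin B receptor with sterol reductase activity, was -0.11 and -0.71 in KD-1 and KD-2. Dhcr7, which makes cholesterol from its precursor 7-dehydrocholesterol, was at 0.01 in KD-1 and -0.78 (-0.95 to -0.60) in KD-2, on 719 reads in control, and 846 and 452 in KD-1 and KD-2. Between the knockdowns, Hsd17b7 (-0.72) and Tm7sf2 (-0.59) were called lower in KD-1, and Lbr (0.60) and Dhcr7 (0.78) higher. These 2 lower and 2 higher calls among 21 enzymes do not exceed the 16.1% and 13.9% of all genes. Only 1 of the latter pair was called under each of the 3 other scalings, and only 1 of the former pair with a pseudocount of 5.

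**Figure D3:**
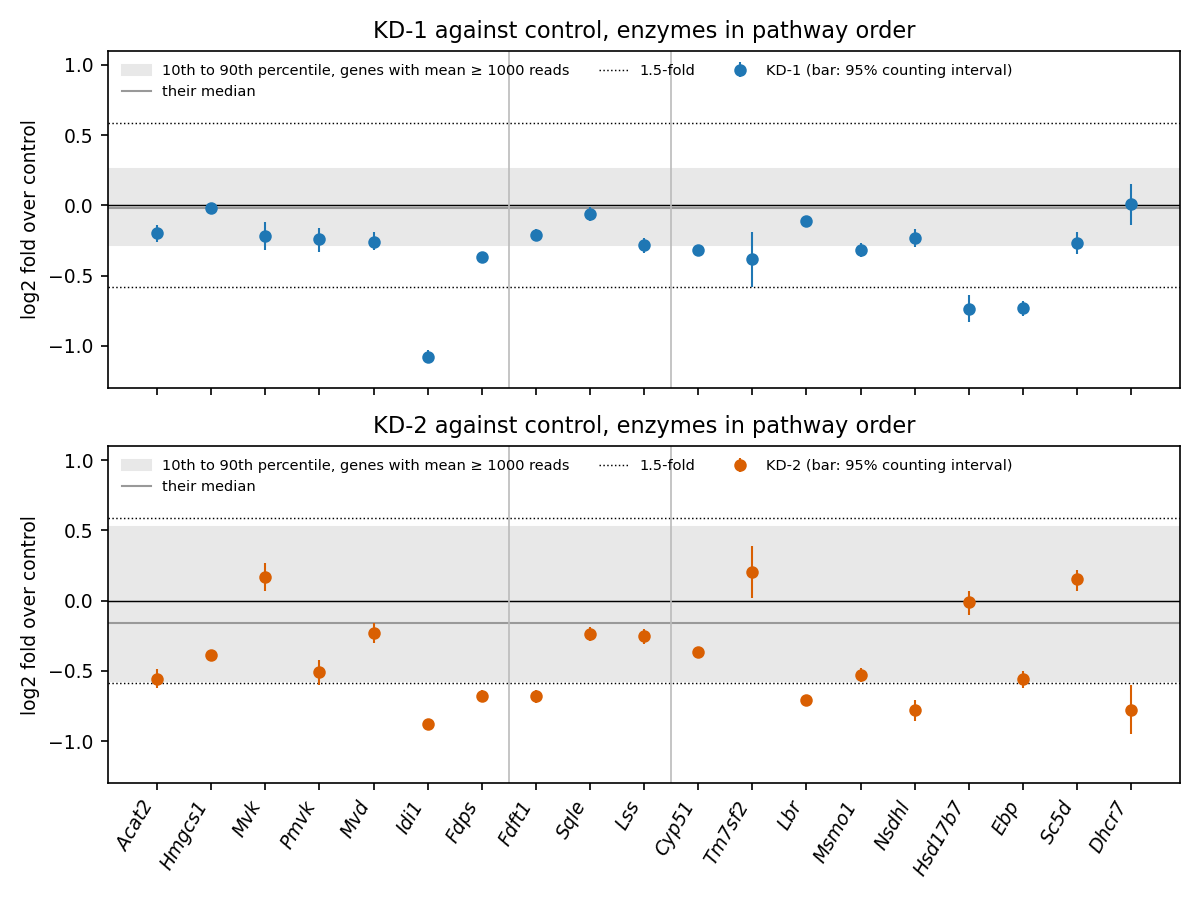
Log2 difference from control of cholesterol synthesis enzymes in order of action, for KD-1 (top) and KD-2 (bottom), with exact 95% intervals from counting of reads, dotted lines at 1.5-fold, a gray band for the central 80% of genes averaging 1000 reads or more and a gray line at their median; upright lines part the mevalonate steps, the squalene steps and the steps after lanosterol. Idi1 lies past the lower dotted line in both, at -1.08 and -0.88.

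SREBP processing genes (Srebf1, Scap, Insig2, Mbtps1 and Mbtps2) had medians of 0.06 and 0.20, with 0 of 5 called lower (all genes: 5.62% and 10.2%) and 1 of 5 called higher, in KD-2 (all genes: 17.1%). The median in KD-1 turned to -0.01 under DESeq2 size factors. Scap, the sterol-sensing escort of SREBP2, was called higher in KD-2 at 0.61 (0.51 to 0.72), and was 0.28 in KD-1. Of 7 genes of sterol-regulated degradation, 1 was called higher in KD-2, near the 17.1% of all genes, namely Mylip, a ubiquitin ligase, which was -0.18 in KD-1 and 0.89 (0.75 to 1.04) in KD-2. Of 8 genes of sterol uptake and transport, 1 was called against control, where 5.62% of all genes were called lower in KD-1, namely Lipa, the lysosomal acid lipase, at -0.88 (-1.04 to -0.72) in KD-1 and 0.31 in KD-2. Between the knockdowns, Npc2, which hands cholesterol out of the lysosome, was called lower in KD-1 at -0.68.

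Among 9 genes of the liver X receptor (LXR) arm, efflux and storage, which oppose sterol accumulation, 4 were called higher in KD-2, beside 17.1% of all genes tested, and 0 in KD-1, beside 8.63%. Nr1h2, which encodes LXRβ, was 0.59 (0.49 to 0.70) in KD-2, just past the threshold of 0.58. Nr1h3, which encodes LXRα, was 1.02 (0.60 to 1.46) in KD-2, on 68 reads in control and 149 in KD-2. Ch25h, cholesterol 25-hydroxylase, was 1.1 (0.58 to 1.66) in KD-2, on 43 reads in control and 100 in KD-2. Cyp46a1 rested on 11, 11 and 24 reads, with an interval of -0.07 to 2.20. Between the knockdowns 3 of the 9 were called lower in KD-1, Nr1h3 at -0.62, Cyp46a1 at -1.21 and Ch25h at -1.0, beside 16.1% of all genes. With DESeq2 size factors 4 were called and with library totals 5, scalings under which the share of all genes is not given. Library totals also moved the median of all genes in this comparison from 0.12 to -0.04. Abcg1, a sterol exporter, was called higher in KD-1 at 0.70, a call lost with library totals. The list's medians were 0.10 and 0.41; fibroblast markers were higher in KD-2 as well (summed level 2150 against 1160 CPM), and their part in these values was not tested.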

How the data were processed

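RNA was measured in 3 libraries, 1 per group (control, KD-1, KD-2), made from ribosome-depleted total RNA. The values the authors deposited are raw counts of reads for each gene. Per the labels these came from Trim Galore 0.4.1, TopHat2 2.1.1 (mm10, GRCm38) and HTSeq, while the study's methods name featureCounts; the counting strand is not given in the sources used here. Reads naming no gene (23.0 to 25.6% of each library) were left out.

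The members and all gene lists were chosen with earlier results of these data known. Counts were scaled by upper quartile (edgeR 4.0.16, R 4.3.3), with a pseudocount of 0.5 and a minimum mean of 10 reads. A gene was called between single libraries past 1.5-fold, with exact 95% Clopper-Pearson intervals (scipy 1.17.1), which cover counting error only. The joint comparison used edgeR's quasi-likelihood test (TMM, Benjamini-Hochberg adjustment), and DESeq2 1.42.0 (Wald test) as alternative. The joint fits were tested on simulated counts. RPKM uses union exon lengths from GENCODE M21, which also gave positions on GRCm38. Alternatives were other scalings (library totals, TMM, DESeq2 size factors), a low-count minimum of 100 mean reads or none, a pseudocount of 5, a fold of 2 and leaving out each knockdown. Named genes are all 8 members, Nup153, genes of the other lists called in any comparison (up to 6 a list, largest changes) and the 5 genes nearest to the members' medians. Some genes of the lists are counted in them but not reported here. Mvk, Ggps1, Scd2, Acaca, Elovl6, and genes beside or overlapping a member were chosen after their values were seen. Nothing says that the libraries came from separate cultures beyond the transductions.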

Additional observations from a re-analysis of the deposited data

How the results depend on the processing

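Of the 3 calls of members against control, Fdft1 in KD-2 was lost with library totals and at a fold of 2, Idi1 in KD-2 was lost at a fold of 2, and Idi1 in KD-1 was kept. The members' reads are too many for the low-count minimum or the pseudocount to move them. Small differences turned with the scaling: in KD-1 against KD-2, Cyp51 ran from -0.12 to 0.05, Insig1 from -0.15 to 0.02 and Srebf2 from -0.11 to 0.06. With DESeq2 size factors 2 members were called lower in KD-1 (Insig1 at -0.59 joined Idi1) and the members' median was -0.31. With library totals, which move the median of all genes by 0.16 in KD-2, 1 member was called lower in KD-2 (Fdft1 was -0.53), the members' median was -0.22, 2 other enzymes were called and their median was -0.35. The members' median in KD-1 against KD-2 was 0.05, 0.00 with TMM, -0.05 with DESeq2 size factors and -0.11 with library totals, so its sign changes with the scaling. For the other enzymes that median was 0.25, 0.14 with DESeq2 size factors and 0.08 with library totals, and 1 was called higher under these and TMM. At a fold of 2, 0 members were called in KD-2 (Idi1 was -0.88), 0 other enzymes in either knockdown and 0 in each direction between the knockdowns, where a pseudocount of 5 left 1 called lower in KD-1. Over the 5 members without an overlapping counted gene, chosen after seeing the data, the KD-1 median was -0.06. Without KD-1 or without KD-2, the joint estimate of the members' median ran from -0.34 to -0.26, with no test. The joint test called 4 genes with upper-quartile scaling, 0 with DESeq2 size factors and 4 with no minimum, and no member in any. No paired analysis was possible because each group holds 1 library.

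Every member had over 1000 reads in each library, so counting intervals are narrow. With 1 library per group, a difference between libraries cannot be told apart from one between conditions.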

Other observations

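Of 10 genes of the isoprenoid branches that leave the sterol route (prenylation, dolichol and ubiquinone synthesis), 0 were called in either knockdown (all genes in KD-1: 5.62% lower, 8.63% higher; in KD-2: 10.2% lower, 17.1% higher), with medians of 0.03 and -0.14 in KD-1 and KD-2; the first turned to -0.04 with DESeq2 size factors and the second to 0.01 with library totals. Icmt, which methylates prenylated proteins, was -0.47 and 0.14, and was the 1 gene of 10 called between the knockdowns, at -0.61, where 16.1% of all genes were called lower in KD-1. Ggps1, which makes geranylgeranyl pyrophosphate, was 0.02 and -0.36.

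Of 11 genes of fatty acid synthesis, 0 were called in either knockdown, beside the same shares of all genes, with medians of -0.04 and -0.11 (0.05 in KD-2 with library totals). Scd2, a stearoyl-CoA desaturase, was -0.28 and -0.58 in KD-1 and KD-2, and Acaca, acetyl-CoA carboxylase, was -0.10 and -0.57. Elovl6, a fatty acid elongase, was 0.42 and -0.11 in KD-1 and KD-2.

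The neighbours of Idi1 were looked at after its values were seen. Idi2, its paralog next to it, had 10 reads in control, and 36 and 19 in KD-1 and KD-2, log2 1.58 (0.58 to 2.80) and 0.79 (-0.36 to 2.09). Wdr37 was -0.11 and -0.18, and Gtpbp4 was 0.05 and -0.51. Of 7873 other genes averaging 1000 reads or more, the 5 whose pair of differences lay nearest to the members' medians were Bcs1l, Gtf2h4, Rrp8, Ercc6 and Mtfr2.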
